A study of Mus musculus with 4 samples.

Results

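The Ikaros family transcription factors were measured in naive CD4+ T cells and in cells 3 h into induced Treg (iTreg) differentiation, each with and without the Nr4a nuclear receptors. The members were the 5 genes Ikzf1 (Ikaros), Ikzf2 (Helios), Ikzf3 (Aiolos), Ikzf4 (Eos) and Ikzf5 (Pegasus), of 32534 genes with a name on the array, and every probe carrying 1 of these names was taken. This gave 19 of 56605 probes, with 4 for Ikzf1, 3 for Ikzf2, 6 for Ikzf3, 5 for Ikzf4 and 1 for Ikzf5. Of the 19 probes, 17 were well above local background on all 4 arrays. The other 2 belong to Ikzf4 and were above background on 3 arrays.

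Ikaros family proteins bind DNA through zinc fingers near their amino-terminal end and pair with each other, or with other members, through zinc fingers at the carboxy-terminal end. In lymphocytes they mostly act as repressors, and Ikaros is known to associate with the NuRD remodelling and deacetylase complex. Ikaros and Aiolos are factors of the whole lymphoid lineage, while Helios and Eos are best known from Treg cells, where Eos works with Foxp3 and the corepressor CtBP1, and Pegasus is the most distant member.

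The groups held 1 array each. WT naive T cells came from bone marrow chimeras of WT marrow. Nr4a-TKO naive T cells came from chimeras that received WT and Nr4a-TKO marrow together, and were taken by their congenic mark. Nr4a-TKO donors were C57BL/6J mice with floxed Nr4a1 and Nr4a2 alleles and no Nr4a3 (Nr4a3-/-); the driver of the Cre recombinase is not given in the sources used here. A Foxp3 reporter knock-in, Foxp3 hCD2-hCD52, is named for the Nr4a-TKO donors of these chimeras, and the sources used here do not say whether the WT donors carried it. The recipients were irradiated Rag2-/- mice, which have no mature T or B cells of their own. All naive cells were sorted from spleen and lymph nodes as CD4+, CD25low, CD44low, CD62L-high and Foxp3-. WT iTreg and Nr4a-TKO iTreg cells at 3 h were such cells cultured on coated anti-CD3 (2 μg/ml) with anti-CD28 (0.5 μg/ml), IL-2 (10 ng/ml), TGF-β1 (the labels give 0.2 ng/ml and 0.5 ng/ml as alternatives) and antibodies that block IFN-γ and IL-4. Genotype and kind of chimera cannot be told apart. The methods give young adult mice of both sexes for the Nr4a lines. The labels give no age and do not say whether animals were pooled.

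Each array gave 59305 spots outside the controls, with none saturated and between 64.9% and 67.6% of probes above background. Levels are log2 of the background-corrected, quantile-normalized intensity, and each difference is a difference of 2 such levels. No group had a replicate, so no difference was tested and the number of arrays limits the precision. Probes spotted at least 5 times on an array gave differences between 2 arrays an SD of 0.18 on the log2 scale, and of 0.22 at levels from 4 to 8. A difference beyond 0.35, 2 SDs over all levels, therefore exceeded the spread of repeated spots, which leaves out the spread between mice and cultures. At levels from 4 to 8 the SD rests on 22 or 23 such probes per array, and 0.35 falls short of 2 SDs there. The targeted genes did not settle the genotype labels. Nr4a1 was higher on the array labelled Nr4a-TKO in naive T (8.39 against 7.05) and at 3 h (11.82 against 11.34), and both Nr4a2 probes were also higher there at 3 h. The 3 Nr4a3 probes differed at 3 h by -1.86, -1.47 and 0.19, Nr4a-TKO minus WT. Which parts of these transcripts the alleles lack was not analysed here, and every direction between genotypes given for the Ikaros family rests on the labels.

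A signal on this array is the binding of labelled cRNA to a strand of 60 bases, so each probe reads the stretch of transcript it matches. Probes are numbered from the 5′ to the 3′ end of the gene, with coordinates on mm9. The probes on which the results turn are printed in lower case, 5′ to 3′. Exons and untranslated regions on mm9 were not analysed here, so that only the first 30 bases are given, except for 2 probes that have an open reading frame and match coding sequence known for these proteins. For Ikzf2, on the minus strand of chromosome 1, the first and second probes lie 650 bases apart and the third 150541 bases from the first, each annotated to a transcript of its own.
Ikzf2 probe 1 (chr1:69728793-69728852), first 30 bases: caaaccaaataagctacttaactacaagca
Ikzf2 probe 2 (chr1:69728143-69728202), first 30 bases: agtagctgtttattggactagcctgtcctt
Ikzf2 probe 3 (chr1:69578252-69578311), first 30 bases: agaaaatggggtttactatggaaatactgc
For Ikzf4, on the minus strand of chromosome 10, the neighbouring probes 1 and 2 gave different results, and probe 5 lies 3078 bases from probe 1.
Ikzf4 probe 1 (chr10:128071259-128071318): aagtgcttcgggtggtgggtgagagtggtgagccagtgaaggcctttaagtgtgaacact
Ikzf4 probe 2 (chr10:128070889-128070948), first 30 bases: cctgttcccttctaccctgaccgatttgag
Ikzf4 probe 5 (chr10:128068181-128068240), first 30 bases: cagaaattatgaagatcaaaaatagaataa
The probes with the highest signal of Ikzf1 (plus strand, crossing an intron) and of Ikzf3 (minus strand), both on chromosome 11, are shown because they stand for these genes in the counts.
Ikzf1 probe 2 (chr11:11658319-11661278): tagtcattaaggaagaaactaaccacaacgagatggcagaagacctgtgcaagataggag
Ikzf3 probe 5 (chr11:98326276-98326335), first 30 bases: agagccaggaatcccaaattcccggtatgt

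Between the genotypes, Ikzf2 and Ikzf4 were the members that stood apart. In naive T, 5 of the 19 probes were lower in Nr4a-TKO by more than 2-fold and 0 were higher by as much. Over all probes measured in that comparison, 1.68% were as much lower and 1.83% as much higher. The 5 probes were the 3 of Ikzf2 and probes 2 and 5 of Ikzf4. At 3 h, 5 of the 19 probes were again more than 2-fold lower and 0 higher, against 1.9% and 1.65% of all probes. These were probes 1 and 2 of Ikzf2 and probes 2, 3 and 5 of Ikzf4. Most of these probes had low signal, and among all probes with a mean level from 5 to 8 the share more than 2-fold lower was 1.02% at either stage, and the share as much higher was 1.26% in naive T and 1.31% at 3 h. Probe 3 of Ikzf4 has a mean level below that range, and its difference at 3 h is a bound.

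**Figure D1:**
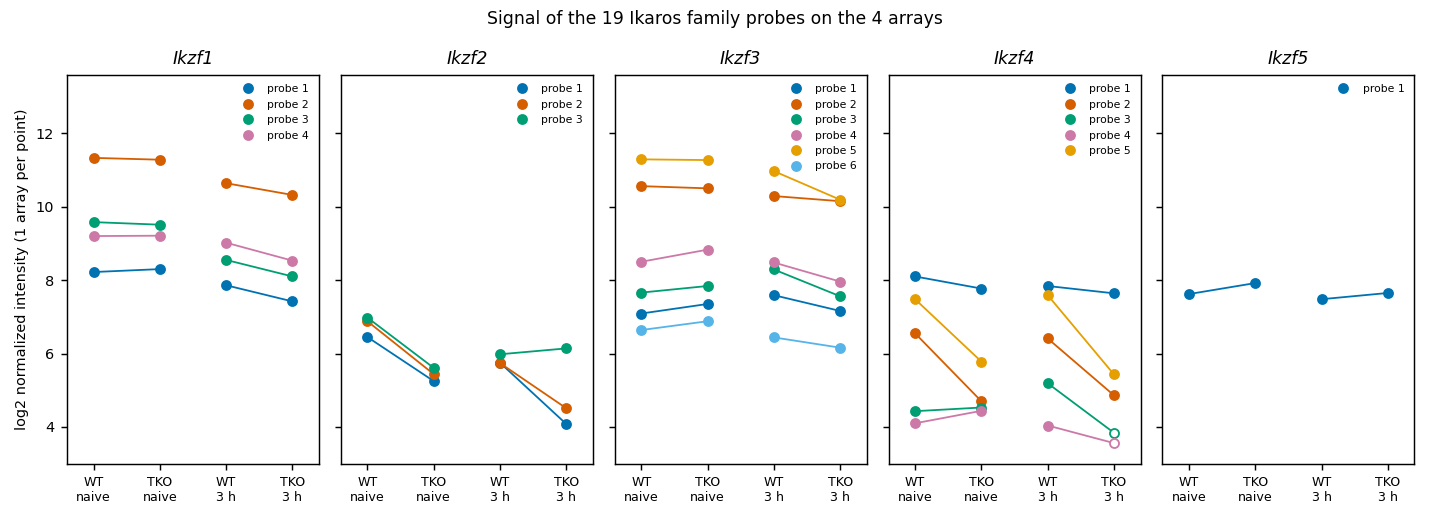
Log2 normalized intensity of the 19 probes on the 4 arrays, 1 panel per gene and 1 colour per probe; filled points were well above background, open points were not, and lines join WT to Nr4a-TKO (TKO) within a stage. In naive T the 3 Ikzf2 probes lie 2.30- to 2.72-fold lower in Nr4a-TKO, where the 4 Ikzf1 probes differed by at most 0.08.

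Ikzf2 probes 1, 2 and 3 read 6.45, 6.88 and 6.98 in WT naive T. In Nr4a-TKO naive T they read 5.25, 5.44 and 5.61, each below its WT level. The difference was thus -1.20, -1.44 and -1.37, or 2.30-, 2.72- and 2.59-fold lower, at both ends of the gene. Before normalization, the processed intensity of probe 2 was 102.8 on the WT and 36.4 on the Nr4a-TKO array.

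At 3 h the ends of Ikzf2 no longer went together. Probe 1 read 5.75 in WT and 4.08 in Nr4a-TKO iTreg cells, and probe 2 read 5.74 and 4.51, which left them 3.17- and 2.33-fold lower in Nr4a-TKO. Probe 3 read 5.98 in WT and 6.14 in Nr4a-TKO, a difference of 0.16 that was within the spread of repeated spots. On the WT arrays all 3 probes were lower at 3 h than in naive T, with differences of -0.70, -1.14 and -0.99. On the Nr4a-TKO arrays probes 1 and 2 were also lower at 3 h, with differences of -1.17 and -0.92, while probe 3 was higher by 0.54. For this 3′ probe the order of the arrays was WT naive T, Nr4a-TKO iTreg, WT iTreg and Nr4a-TKO naive T, and the middle pair did not differ beyond 0.35. For probe 2 it was WT naive T, WT iTreg, Nr4a-TKO naive T and Nr4a-TKO iTreg, with the middle pair 0.30 apart. A gene-level value for Helios thus depends on the probe. With probe 3, which has the highest mean, Ikzf2 was the only 1 of the 5 genes more than 2-fold lower in Nr4a-TKO naive T (1.69% of all genes were), and no family gene was more than 2-fold apart between the genotypes at 3 h (1.95% of all genes were lower and 1.75% higher).

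Ikzf4 differed between the genotypes at probes 2 and 5 and not at probe 1. Probe 2 read 6.55 in WT naive T, 4.70 in Nr4a-TKO naive T, 6.41 in WT iTreg and 4.86 in Nr4a-TKO iTreg cells. The corresponding processed intensities were 92.2, 23.7, 93.5 and 25.4. Both WT arrays lay above both Nr4a-TKO arrays, with a 3.62-fold difference in naive T and a 2.92-fold difference at 3 h. Probe 5 read 7.48, 5.78, 7.59 and 5.43 in the same order. Again both WT arrays lay above both Nr4a-TKO arrays, 3.24-fold in naive T and 4.45-fold at 3 h, the largest genotype difference of the 19 probes at that stage. The files annotate this probe to another transcript than the others of Ikzf4. Among all probes, 0.60% were as much lower in naive T and 0.36% at 3 h.

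Probe 1 of Ikzf4, only 370 bases upstream of probe 2 and annotated to the same RefSeq transcript, read 8.10, 7.77, 7.84 and 7.64. Its genotype differences of -0.33 and -0.20 were within the spread of repeated spots. Because it had the highest mean of the Ikzf4 probes, it stands for Eos in counts by gene, which therefore do not hold the differences of probes 2 and 5. The other probes were close to background. Probe 3 read 4.43 in WT and 4.53 in Nr4a-TKO naive T. At 3 h it read 5.19 in WT and was not well above background in Nr4a-TKO, which makes it at least 2.54-fold lower there (-1.34) with the normexp correction. This bound depends on the correction, with -0.82 when none was made, -0.42 with an offset of 50 and -2.18 when arrays were scaled to the 75th percentile. Probe 4 read 4.10 in WT and 4.44 in Nr4a-TKO naive T, then 4.04 in WT iTreg, and was not well above background in Nr4a-TKO iTreg cells, with a bound of -0.48, which was -0.10 with the offset and -0.93 when scaled to the 75th percentile. With time in culture on the WT arrays, the difference was -0.26 at probe 1, -0.14 at probe 2, -0.06 at probe 4 and 0.11 at probe 5, within the spread of repeated spots. Probe 3 was higher at 3 h by 0.76, or by 1.03 when arrays were scaled to the 75th percentile and by 0.27 with an offset of 50 added to the signal.

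Low signals depend on the background correction. With an offset of 50 added before log2, the Ikzf4 probe 2 differences were -0.92 and -0.77, under 2-fold, and those of probe 5 were -1.12 and -1.38, still past it. The naive T differences of Ikzf2 were then -0.64, -0.85 and -0.84, and those of its probes 1 and 2 at 3 h were -0.63 and -0.50, all under 2-fold. No direction of a family value past 2-fold turned under any other normalization tried.

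**Figure D2:**
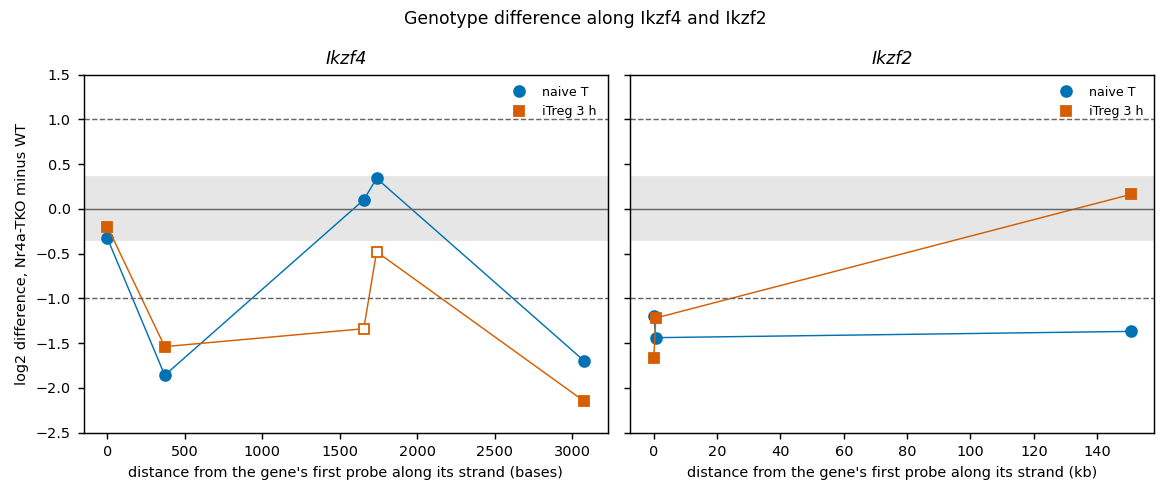
Log2 difference, Nr4a-TKO minus WT, of the Ikzf4 and Ikzf2 probes against their distance from the gene's first probe along its strand, in naive T (circles) and iTreg at 3 h (squares); open symbols are bounds where an array was not well above background, the grey band is 2 SD of repeated spots (0.35) and dashed lines mark 2-fold. Probe 1 of Ikzf4 lies in the band at both stages, and the last probe of Ikzf2 lies in it at 3 h while the first 2 lie beyond 2-fold.

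The naive T and the 3 h comparison share no array, so a probe lower in both was read on 4 separate arrays. Cells at 3 h were cultured from naive cells sorted in the same way. The 2 comparisons are thus not independent replicates of a genotype difference. Of 7253 genes with at least 2 probes measured in both comparisons, 6 (0.083%) had at least 2 probes more than 2-fold lower in Nr4a-TKO at both stages, and 2 of these were Ikzf2 and Ikzf4. The other 4 were Ccl27a, Mid1, Trat1 and Vmn2r97. Ikzf2 met the rule with 2 of 3 probes and Ikzf4 with 2 of 5, and the brightest probe of neither gene was among them. The rule was not among the planned results and repeats the pattern already described for both genes. The share of 0.083% is thus a description and no separate evidence of a genotype difference. In the opposite direction 13 genes (0.179%) qualified, with 0 from the family. With the offset of 50 neither Ikzf2 nor Ikzf4 qualified. Without background correction Ikzf4 did, and Ikzf2 did not, since its probe 1 differed by -0.87 in naive T and its probe 2 by -0.79 at 3 h.

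Ikzf1 was level between the genotypes in naive T, and lower at 3 h than in naive T on both pairs of arrays. Its brightest probe, probe 2, read 11.33 in WT naive T, 11.28 in Nr4a-TKO naive T, 10.64 in WT iTreg and 10.32 in Nr4a-TKO iTreg cells. The naive arrays did not differ beyond 0.35, nor did the iTreg arrays, while each iTreg array lay below its naive array, by 0.69 in WT and 0.96 in Nr4a-TKO. Probe 3 read 9.58, 9.51, 8.55 and 8.10. It was the Ikzf1 probe with the largest difference, 2.04-fold lower at 3 h in WT and 2.66-fold lower in Nr4a-TKO. Probe 1 (8.22, 8.30, 7.86 and 7.42) and probe 4 (9.20, 9.21, 9.02 and 8.53) had the same order of stages with smaller differences. Over the 4 probes the change with culture ran from -1.03 to -0.18 in WT and from -1.41 to -0.69 in Nr4a-TKO. The difference of probe 4 in WT was -0.18, or 0.01 when arrays were scaled to the 75th percentile, so its direction depends on the scaling.

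Ikzf3 gave a like picture on the Nr4a-TKO arrays and a mixed one on the WT arrays. Its brightest probe, probe 5, read 11.29 in WT naive T, 11.27 in Nr4a-TKO naive T, 10.97 in WT iTreg and 10.19 in Nr4a-TKO iTreg cells. The 3 upper levels lay within 0.35 of each other, and the Nr4a-TKO iTreg array lay 1.72-fold below the WT iTreg array and 2.12-fold below its own naive array. Probe 6, 100 bases further 3′, read 6.64, 6.88, 6.44 and 6.16, and probe 4 read 8.50, 8.83, 8.48 and 7.96. The 3 probes nearer the 5′ end are annotated to other transcripts. Of those 3, probe 1 (7.09, 7.35, 7.59 and 7.16) and probe 3 (7.66, 7.84, 8.29 and 7.56) were higher at 3 h in WT, by 0.50 and 0.63, and were lower by 0.19 and 0.28 in Nr4a-TKO. Probe 2 (10.56, 10.50, 10.29 and 10.15) differed least. All 6 Ikzf3 probes were lower at 3 h than in naive T on the Nr4a-TKO arrays, and 4 of them were on the WT arrays, of which probe 4 (-0.02) turned to 0.15 when arrays were scaled to the 75th percentile.

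Taking Ikzf1 and Ikzf3 together, none of their 10 probes differed between the genotypes in naive T beyond 0.35, with values from -0.06 to 0.33. At 3 h all 10 were lower in Nr4a-TKO, from -0.78 to -0.14, and 7 of them by more than 0.35. Of these 7, probe 1 of Ikzf1 (-0.43) and probe 1 of Ikzf3 (-0.42) read below 8 on both iTreg arrays, where repeated spots spread more widely. Among all probes with a mean level of 7 or more, which hold 9 of the 10, 5.47% were lower by more than 0.35 in that comparison and 51.5% were below 0. The difference of the changes, Nr4a-TKO minus WT, was below 0 for all 10 probes, with a median of -0.52 against 0.01 over all such probes. The 10 probes read 2 genes on the same 4 arrays and are not replicates, and with 1 array in each group this difference was not tested. Pairing these 2 genes was not among the planned results and leaves out the other members, so the shares over all probes are a description only.

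Ikzf5 was level over the arrays. Its probe (chr7:138532517-138532576, minus strand) read 7.62 in WT naive T, 7.92 in Nr4a-TKO naive T, 7.48 in WT iTreg and 7.65 in Nr4a-TKO iTreg cells. No genotype or culture difference exceeded 0.30, within the spread of repeated spots. The direction between the genotypes, higher in Nr4a-TKO by 0.30 and 0.17, was opposite to that of most family probes at 3 h.

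With culture, most of the 19 probes, which read 5 genes, lay below 0, though on the WT arrays often within the spread of repeated spots. From naive T to iTreg at 3 h on the WT arrays, 2 of 19 probes were more than 2-fold lower (probe 3 of Ikzf1 and probe 2 of Ikzf2) and 0 higher, against 8.5% and 9.29% of all probes, which is close to the background. On the Nr4a-TKO arrays, 3 of 19 were more than 2-fold lower (probe 3 of Ikzf1, probe 1 of Ikzf2 and probe 5 of Ikzf3) and 0 higher, against 7.96% and 8.26%. Among all probes with a mean level from 5 to 8 the shares lower and higher were 10.1% and 10.8% in WT and 8.9% and 9.69% in Nr4a-TKO. By gene, 0 of 5 were more than 2-fold apart in WT, where 8.59% of all genes were lower and 8.45% higher. In Nr4a-TKO, 1 of 5 was lower (Ikzf3), where 8.03% of all genes were lower and 7.84% higher. The number of probes below 0 was 15 of 19 in WT, with a median of -0.20, and 17 of 19 in Nr4a-TKO, with a median of -0.69. Over all probes the medians were -0.02 and 0.01, with 51.4% and 49.5% below 0. Between the genotypes, 10 of 19 were below 0 in naive T (median -0.02) and 17 of 19 at 3 h (median -0.48), against 52.0% and 49.7% of all probes.

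**Figure D3:**
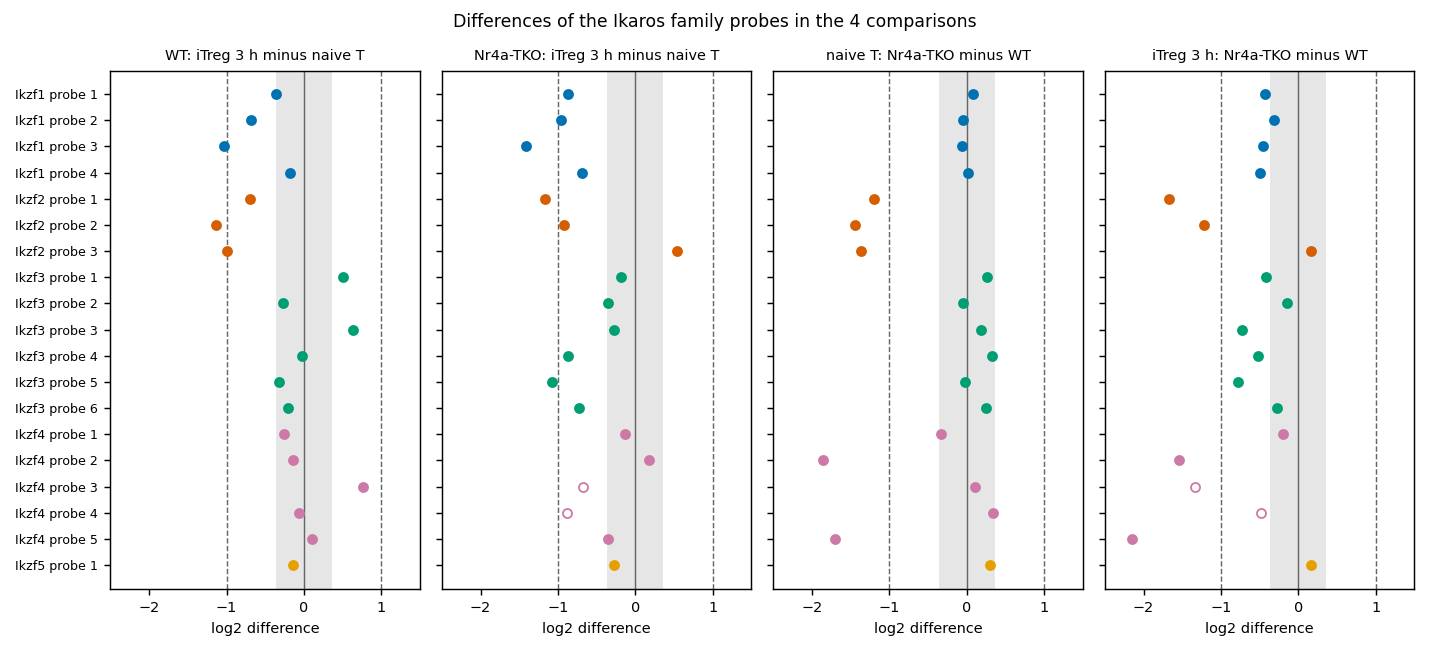
Log2 differences of the 19 probes in the 4 comparisons, 1 panel each, with the grey band at 2 SD of repeated spots (0.35) and dashed lines at 2-fold; open points are bounds where an array was not well above background. No probe lies beyond the right dashed line in any panel, and at 3 h 17 of 19 probes lie left of 0 between the genotypes.

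Foxp3, the defining factor of Treg cells, and its surface companions were read beside Helios and Eos. The Foxp3 probe read 7.41 in WT naive T, 6.10 in Nr4a-TKO naive T, 7.53 in WT iTreg and 6.17 in Nr4a-TKO iTreg cells. As with Ikzf4 probe 2, both WT arrays lay above both Nr4a-TKO arrays, by 1.31 and 1.36, and the stages differed by only 0.11 and 0.07. The part of the reporter knock-in in these values was not tested. Of the 7 Treg cell marker genes, all above background on every array, 1 was more than 2-fold lower in Nr4a-TKO naive T (Foxp3) and 1 higher (Gpr83, by 1.56). At 3 h, 1 was lower (Foxp3) and 2 were higher (Gpr83 by 2.27 and Nrp1 by 1.05). The median of the list was -0.07 in naive T and 0.06 at 3 h. Its summed level in log2 was 10.67 and 11.06 in WT and Nr4a-TKO naive T, and 11.38 and 11.68 in the iTreg cells. The other members differed by 0.97 (Nrp1), 0.84 (Ctla4), -0.07 (Il2ra), -0.25 (Tnfrsf18) and -0.97 (Itgae) in naive T, so that 3 of the 7 lay above 0 and 4 below. At 3 h, 5 lay above 0 and 2 below, with Itgae at -0.11. Over the measured probes of Nrp1 the genotype difference ran from 0.02 to 0.97 in naive T and from 0.24 to 1.61 at 3 h. Its size thus depends on the probe. In bulk RNA, fewer cells of a type and less RNA per cell cannot be told apart.

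**Figure D4:**
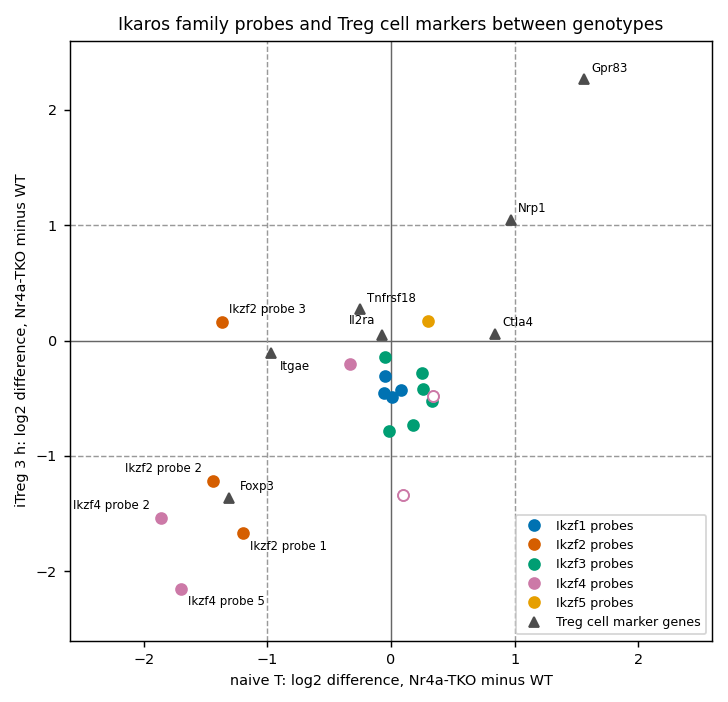
Log2 difference, Nr4a-TKO minus WT, at 3 h (vertical axis) against naive T (horizontal axis) for the 19 family probes (circles) and 7 Treg cell marker genes (triangles), 1 array per group; dashed lines mark 2-fold. Open circles are bounds at 3 h. Foxp3 lies with 2 Ikzf2 and 2 Ikzf4 probes in the lower left corner, and Gpr83 and Nrp1 lie opposite.

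Markers of other cells also differed with the genotype label. Of 9 B cell genes, all above background, 8 were higher in Nr4a-TKO naive T and 9 at 3 h, with medians of 0.70 and 0.77. Among these, Ms4a1 (0.10 and 0.07) and Pax5 (0.08 and 0.11) were within the spread of repeated spots. Cd79b was lower in naive T (-0.56). More than 2-fold higher were H2-Aa in naive T (1.61), and H2-Ab1 (1.38), H2-Aa (1.34) and Cd79a (1.14) at 3 h. Over all genes, 1.93% in naive T and 1.75% at 3 h were as much higher. The summed level of this list was 10.56 in WT and 11.12 in Nr4a-TKO naive T, and 10.18 and 11.06 in the iTreg cells. Of 8 memory T cell genes, Id2 was higher (1.03) and S100a4 lower (-2.17) in Nr4a-TKO naive T, and Cd44 (1.56) and Cxcr3 (1.30) were higher at 3 h, with list medians of 0.11 and 0.52. Of 9 myeloid genes, 6 were above background on all arrays, the median genotype differences were -0.10 and -0.07, and Cd14 was lower in Nr4a-TKO naive T (-2.70). The medians of both CD8 T cell genes were -0.13 and -0.45, and of 4 measured erythroid genes -0.20 and 0.23, with none past 2-fold. The 12 naive CD4 T cell genes, among them Cd3e and Cd4, were above background on every array, and none was more than 2-fold apart between the genotypes. The sort for CD4+, CD44low and CD62L-high cells was set to leave out B cells and memory T cells, but its purity was not measured here. The part of such cells in the values of the Ikaros family was not tested.

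The genes of the complexes in which Ikaros proteins work were all measured, and none was more than 2-fold apart between the genotypes. Of 14 NuRD subunits, 0 were more than 2-fold apart in naive T or at 3 h, with genotype differences from -0.44 (Gatad2a in naive T) to 0.50 (Hdac1 at 3 h). With culture, the WT arrays had 2 subunits more than 2-fold higher, the histone chaperone Rbbp7 (1.27) and Cdk2ap1 (1.03). The remodeller Chd3 (-1.49) and the deacetylase Hdac1 (-1.02) were lower. On the Nr4a-TKO arrays Cdk2ap1 (1.15), the deacetylase Hdac2 (1.13) and Rbbp7 (1.12) were higher, and Chd3 (-1.55) and Mta3 (-1.22) were lower. Chd4, the remodeller through which Ikaros is tied to NuRD, read 10.31, 10.39, 10.53 and 10.39 over the arrays at its brightest probe. A dimmer Chd4 probe read 7.01, 7.49, 8.14 and 8.1. Its culture differences were 1.13 (WT arrays) and 0.62 (Nr4a-TKO arrays), and its genotype differences 0.48 (naive T) and -0.04 (3 h). The size of the culture difference of Chd4 therefore varied with the probe. Of 7 other corepressors, 0 were more than 2-fold apart in any comparison, and Ctbp1 read 8.53, 8.76, 8.87 and 8.79. In human cells, cereblon (Crbn) is the substrate receptor of the ubiquitin ligase that destroys Ikaros and Aiolos under thalidomide analogs. Of the 5 genes of that ligase, 0 were more than 2-fold apart in any comparison. Their differences with culture ran from 0.27 to 0.95 in WT and from 0.08 to 0.88 in Nr4a-TKO, some of them within the spread of repeated spots, where 53.8% and 51.3% of all genes lay below 0. The other 2 Crbn probes were lower at 3 h, by 0.37 and 1.36 in WT and by 0.25 and 1.06 in Nr4a-TKO, so the direction for Crbn depends on the probe.

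Genes that Ikaros proteins are known to act on in T cells differed mostly with culture, and only Foxp3, Il2 and Ifng were more than 2-fold apart between the genotypes. Il2, which Ikaros and Aiolos repress in other settings, was not well above background in WT naive T (3.73) and read 4.08 in Nr4a-TKO naive T, 7.09 in WT iTreg and 8.29 in Nr4a-TKO iTreg cells. It was at least 10.3-fold higher at 3 h in WT and 18.6-fold higher in Nr4a-TKO, and 2.30-fold higher in Nr4a-TKO than in WT iTreg cells. Its other probe gave 7.29 and 8.26 at 3 h, a difference of 0.97 that stayed just under 2-fold. Of the 14 genes in the list, 11 gave a difference on the WT arrays, with 2 more than 2-fold higher and 5 lower. Higher were Il2 and Bcl6 (1.96), and the 4 with the largest difference below 0 were Il7r (-3.02), Dtx1 (-1.87), Dntt (-1.5) and Ptcra (-1.07). On the Nr4a-TKO arrays 12 gave a difference. Il2, Bcl6 (1.76) and Ifng (at least 2.32-fold) were higher, and Il7r (-2.76), Dtx1 (-2.64) and Cd4 (-1.53) were lower. Between the iTreg arrays Ifng was at least 2.22-fold higher in Nr4a-TKO. Hes1 and Il10 were not well above background on any array. Among 12 early activation genes, 8 were more than 2-fold higher at 3 h in each genotype. The largest differences beside Il2 were Irf4 (6.35 in WT and 5.21 in Nr4a-TKO), Cd69 (3.30 and 3.78) and the cytokine gene Tnf (2.87 and 3.02), and Fos was lower (-2.39 and -2.73). Between the genotypes, 9 of 11 measured genes of this list were higher in Nr4a-TKO naive T (median 0.35) and 2 were lower. Irf4 was past 2-fold there (1.25), where 1.93% of all genes were as much higher. At 3 h, 9 of 12 were higher and 3 lower (median 0.20). The part of this in the values of the Ikaros family was not tested.

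The patterns most like those of the family over the 4 arrays were found among 15664 genes with a RefSeq symbol and signal above background on every array, without the family, by the root mean square distance of centred log2 levels. For Ikzf1 (probe 2) the nearest were Scnm1 (0.0161), Bpifa5 (0.0208) and Eno3 (0.0280), and 855 genes lay within 0.18. For Ikzf3 (probe 5) they were Lpp (0.0301), Smim4 (0.0590) and Thrb (0.0706), with 112 genes within 0.18. For Ikzf2 (probe 3) they were Bnip5 (0.0522), Twist2 (0.0704) and Olfr1335 (0.0709), with only 19 genes within 0.18. The 4 levels of Ikzf2 probe 3 thus had the fewest counterparts. Ikzf4 and Ikzf5 spanned under 2-fold at their brightest probe and were not matched.

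Probes within 100 kb of the family's probes were read for whether differences ran on past the genes. Downstream of Ikzf2 on the minus strand, an unnamed probe (chr1:69562826-69562885), 15366 bases beyond Ikzf2 probe 3, read 6.75 in WT naive T, 4.97 in Nr4a-TKO naive T, 6.44 in WT iTreg and 5.30 in Nr4a-TKO iTreg cells. It was lower in Nr4a-TKO at both stages, by 1.78 and 1.14, as were probes 1 and 2 of Ikzf2. A second unnamed probe on the same strand (chr1:69555389-69555448), 22803 bases beyond probe 3, read 5.29, 4.0, 4.62 and 4.52, lower by 1.29 in naive T, with a difference of -0.10 at 3 h that was within the spread of repeated spots. Another probe on that strand, 41255 bases beyond probe 3, was well above background only in Nr4a-TKO naive T, where it was higher than in WT by at least 0.96. An unnamed probe on the opposite strand, 9250 bases from probe 3, read 4.55, 3.62, 4.05 and 3.68 and was above background on 3 arrays. Its genotype differences were -0.93 in naive T and -0.37 at 3 h. Of the 8 probes near Ikzf2, 4 were measured in naive T, with 2 more than 2-fold lower in Nr4a-TKO and 0 higher, and 3 were measured at 3 h, with 1 lower and 0 higher. Whether these probes read the Ikzf2 transcript was not tested. Around Ikzf4, 18 neighbouring probes were measured, and their median genotype difference was -0.05 in naive T and -0.04 at 3 h. None was more than 2-fold lower in Nr4a-TKO at either stage, and 1 was higher in naive T, a Rab5b probe (by 2.06) whose gene's other 2 probes differed by -0.01 and -0.20. The nearest, for the ribosomal protein gene Rps26, differed by 0.18 and 0.10. Among the neighbours of Ikzf4, Dgka, which encodes a diacylglycerol kinase, was lower at 3 h at both probes, by 2.52 and 2.77 in WT.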

How the data were processed

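RNA of 4 samples, 1 per group, was hybridized to 1-colour Agilent 8x60K mouse arrays, which were on 1 slide and read in 1 scan. For each array the authors deposited the output of Agilent Feature Extraction 11.5.1.1, with the mean intensity of each spot, its local background and flags, and a value table on the log2 scale. The study's methods name RMA. The deposited log2 values were found to be the processed intensity in log2 minus a constant of each array (6.39, 6.35, 6.58 and 6.50), which puts the 75th percentile near 0. Probe coordinates in the files are on mm9.

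Intensities were corrected with normexp (offset 0), quantile-normalized and put on the log2 scale in limma 3.58.1 (R 4.3.3), leaving out control spots and 115 to 160 flagged spots per array. Spots of a probe were averaged. Later steps used Python 3.11.15, pandas 2.3.3, numpy 2.4.6 and matplotlib 3.10.9. Each gene was read at the probe whose 4 levels averaged highest. Gene names followed RefSeq on GRCm38.p6 for 41700 probes by symbol, for 1660 by transcript and 487 by synonym, 7927 are under the files' own name and 4831 are unnamed. A difference needed at least 1 of 2 arrays well above background. The other array then stood at the higher of its own value and the lowest level above background there (3.45, 3.37, 3.43 and 3.07 for naive T of WT and Nr4a-TKO, then iTreg of both). The threshold was 2-fold. No test was run, since each group had 1 array, and counting was checked on simulated data.

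The members and lists were chosen with earlier results of these data known: NuRD subunits, other corepressors, the Crbn ligase, genes linked to Ikaros factors, early activation genes and markers of naive CD4 T, Treg, B, CD8 T, memory T, myeloid and erythroid cells. Named were all family probes, up to 4 list genes past 2-fold in each direction and comparison, 6 genes whatever their value (Il2, Foxp3, Chd4, Hdac1, Crbn, Ctbp1), the 3 Nr4a genes, the 3 nearest patterns and neighbours within 100 kb. The 4 genes beside Ikzf2 and Ikzf4, and the neighbours described, were picked after their values were seen. The rule of at least 2 probes at both stages, and the joint reading of Ikzf1 and Ikzf3, were not among the planned results. The alternatives tried were processed intensities divided by their 75th percentile, an offset of 50, uncorrected intensities, the values as deposited, genes as the mean over their probes, a filter for both arrays above background, none on dim probes, and thresholds of 1.5-fold and 3-fold. Counts by probe under these settings were added after the data were seen.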

Additional observations from a re-analysis of the deposited data

Results flagged for a closer look

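Probe 3 of Ikzf2 differed in opposite directions with culture, -0.99 on the WT arrays and 0.54 on the Nr4a-TKO arrays, a difference of the changes of 1.53. Probe 3 of Ikzf4 did so in the other sense, 0.76 in WT and a bound of -0.68 in Nr4a-TKO, where it was not well above background at 3 h, a difference of the changes of -1.44. Both were singled out because the arrays of the 2 genotypes moved apart, each beyond 2 SD of repeated spots (0.35). With 1 array per group the difference was not tested.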

How the results depend on the processing

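No paired analysis was possible because each group has 1 array and the labels give no shared replicate numbers. Of 95 probe values (differences and differences of the changes), 17 were past 2-fold, and none of these reversed under any alternative. Under 2-fold came 13 of the 17 with an offset of 50, 7 without background correction and 2 each with 75th percentile scaling and the deposited values. Those 2 settings each put 7 other values past 2-fold and turned the sign of 5 under it. An offset shrinks differences of dim probes by construction, and for the scaling the cause was not tested.

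Counts are of members more than 2-fold apart in WT with culture, Nr4a-TKO with culture, naive T between genotypes and iTreg at 3 h between genotypes, in that order. By gene the counts were 0, 1, 1 and 0. They became 1 in WT and 0 in Nr4a-TKO with 75th percentile scaling, and likewise with the deposited values. The offset of 50 gave 0 in naive T, and the mean of all probes gave 0 in Nr4a-TKO and 1 at 3 h. At 1.5-fold the counts were 2 in WT, 2 in Nr4a-TKO and 1 at 3 h, and at 3-fold they were 0 in Nr4a-TKO and 0 in naive T. By probe the counts, added after the data were seen, were 2, 3, 5 and 5. The offset gave 0 in WT, 1 in naive T and 1 at 3 h. No background correction gave 0 in WT and 3 at 3 h, and 75th percentile scaling and the deposited values each gave 5 in Nr4a-TKO. At 1.5-fold the counts were 7 in WT, of which 2 were higher, and 11 in Nr4a-TKO. At 3-fold they were 0 in WT, 0 in Nr4a-TKO, 2 in naive T and 2 at 3 h. Requiring both arrays above background, or no filter, moved no count by over 1.5 times. Signal over background limits Ikzf4 probes 3 and 4, and the medians of all probes stayed between -0.09 and 0.02 under the normalizations tried.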
